A study of Rattus norvegicus with 20 samples.

Results

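Cholesterol synthesis was followed through 6 of its enzymes in tissue labelled retroperitoneal from male rats described as ZDF (Zucker diabetic fatty). The 6 came from a list of 8 gene symbols (Hmgcs1, Mvd, Idi1, Fdps, Sqle, Lss, Nsdhl and Dhcr7), of which 6 were measured among 14557 genes with a single symbol, each by 1 feature of the array. Hmgcs1 and Lss were not analysed here. All 8 listed genes encode synthetic enzymes and none encodes an uptake receptor, so uptake genes were described from a separate list. The members were taken by symbol, from a list chosen with earlier results of these data known.

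The series held 20 arrays in 4 groups of 5, hybridised from 100 ng of total RNA per rat sample. Lean control rats were fed a standard Purina chow, and obese rats were given a stock diet for 6 weeks. The other groups are labelled rosiglitazone, which activates PPARG, the master regulator of fat cell formation, and resveratrol, a plant polyphenol. All rats were male, called ZDF in the growth protocol and Zucker in the strain label, and were kept singly with free access to food on a reversed light cycle. Age, genotype at the leptin receptor, drug dose, the diet of the treated rats and whether these rats were obese are not stated in the labels. Obesity and diet cannot be told apart between the obese and lean control groups. The arrays of a group are labelled as biological replicates.

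Cells make cholesterol from acetyl-CoA through mevalonate. Mvd and Idi1 turn mevalonate into the activated isoprene units, and Fdps joins these into farnesyl diphosphate, which is also used for protein prenylation, dolichol and ubiquinone. Squalene is then formed and oxidised by Sqle, and after ring closure Nsdhl and Dhcr7 act on the sterol itself, Nsdhl in the removal of methyl groups at C-4 and Dhcr7 in the last reduction. When sterol in the endoplasmic reticulum falls, SCAP escorts the transcription factor SREBP2 to the Golgi for cleavage, and SREBP2 with its partner NF-Y raises transcription of these genes together. White fat cells store much of the body's free cholesterol but are known for a low rate of making it.

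The tissue carried the adipocyte markers Adipoq and Plin1 on every array, with Adipoq between 9.92 and 11.18 on the log2 scale of the deposited values. Of the adrenal cortex markers, the steroidogenic enzymes Cyp11b1, Cyp11b2, Cyp17a1, Cyp21a1 and Cyp11a1 stayed at or below 2.78 on all 20 arrays, under the median gene level of 3.02. The remaining marker on that list, the corticotropin receptor Mc2r, which rodent fat cells also express, was above it on all arrays, with group means of 5.79 to 6.51. The liver markers Ttr, Tat, Apob and Serpina1 were also below that level on all arrays, whereas Alb was at 9.0 to 10.25 in rosiglitazone arrays and at 3.04 to 4.54 in obese arrays. In lean control arrays Alb was at 3.91 to 8.80, with a median of 8.16, and in resveratrol arrays at 3.955 to 5.518. Resveratrol array 1 stood apart. Its mean over 5 skeletal muscle markers was 8.70 against 2.57 to 2.80 on the other resveratrol arrays, and its mean over 9 mammary and simple epithelial markers was 7.26 against 1.58 to 2.27. Obese array 2 had a mean of 6.88 over 6 urothelial markers, against 2.53 to 2.89 on the other obese arrays. Member differences that moved by over 1.5 times without these arrays are given both ways, and in whole tissue a change in the number of cells of a type and a change in RNA per cell cannot be told apart.

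**Figure D1:**
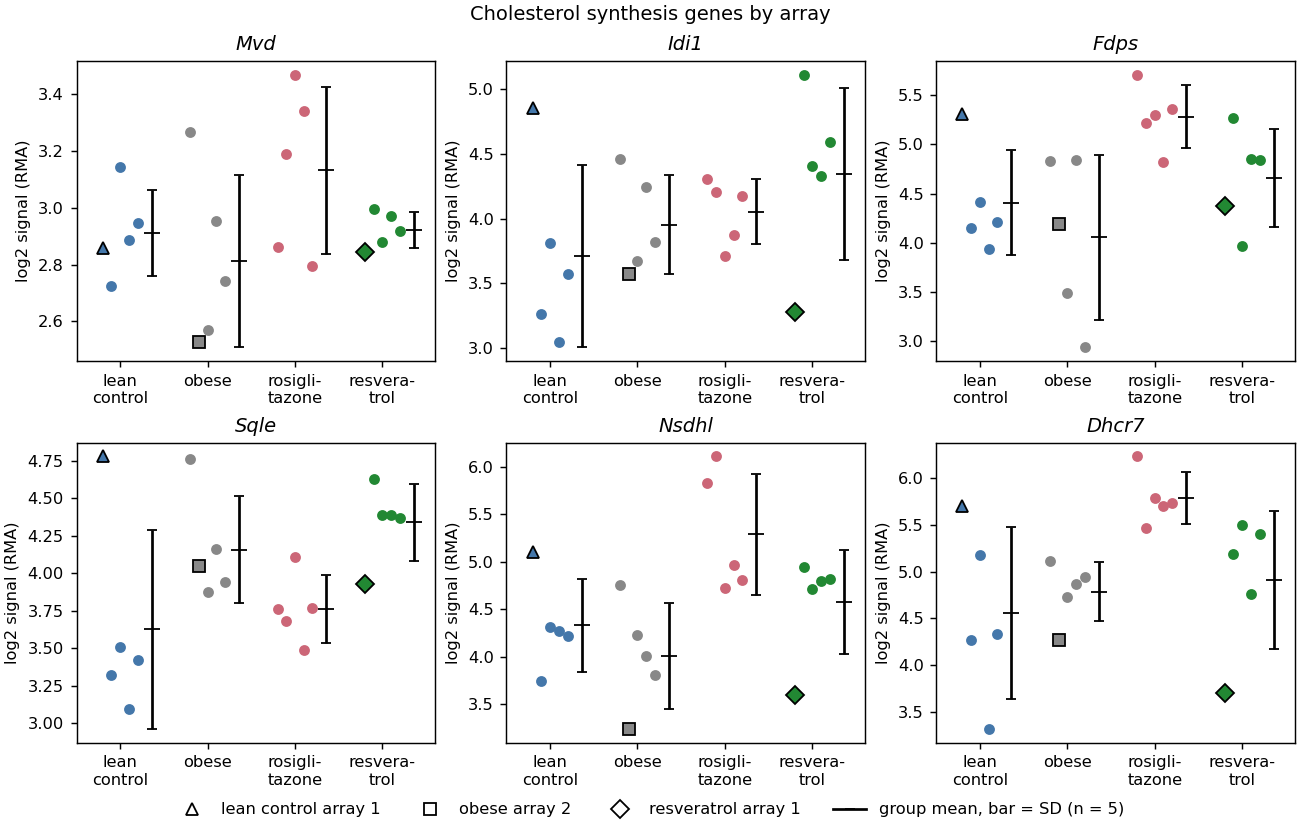
Each panel shows 1 gene, with the log2 signal of every array on the vertical axis and the 4 groups along the horizontal axis; black bars give the group mean and SD (n = 5), and outlined symbols mark lean control array 1, obese array 2 and resveratrol array 1. All 5 rosiglitazone arrays of Dhcr7 lie above all 5 obese arrays, while for Sqle all 5 rosiglitazone arrays lie below the obese mean.

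Rosiglitazone and obese arrays were compared for differences that go with the drug. Fdps and Nsdhl rose, Dhcr7 had a similar difference that missed the threshold, and Mvd, Idi1 and Sqle did not pass. A gene was called where limma gave p under 0.05 after Benjamini-Hochberg adjustment across the 14557 genes. Of the 6 measured members 2 passed on the higher side and 0 on the lower side. Over all genes, 9.86% passed, 7.19% on the higher side and 2.67% on the lower side. At an unadjusted p under 0.05 stood 4 of 6 members and 23.5% of all genes. The median difference of the 6 members was 0.66 on the log2 scale, against 0.01 over all genes.

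Nsdhl had the largest difference among the 6. Its log2 level was 5.83, 6.11, 4.73, 4.96 and 4.81 on rosiglitazone arrays 1 to 5 and 4.75, 3.24, 4.23, 4.01 and 3.81 on obese arrays 1 to 5. Rosiglitazone arrays 1 and 2 were well above the other 3, and the groups overlapped only because obese array 1 lay just above rosiglitazone array 3. The difference was 1.28 (SE 0.32, limma adjusted p = 0.0128), or 2.43-fold, with 5 of 5 rosiglitazone arrays above the obese mean. It passed under all 21 alternatives tried, with adjusted p between 0.00615 and 0.0415 and log2 differences between 1.05 and 1.47. The lowest obese value was that of obese array 2, the array with urothelial transcripts. Without it and resveratrol array 1 the difference was 1.09 (adjusted p = 0.0165).

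Fdps had log2 levels of 5.71, 5.22, 5.30, 4.82 and 5.36 on rosiglitazone arrays 1 to 5. On obese arrays 1 to 5 it stood at 4.83, 4.19, 3.49, 4.84 and 2.94. The obese arrays were widely spread, with arrays 3 and 5 low, and obese arrays 1 and 4 reached the lowest rosiglitazone array. The difference was 1.22 (SE 0.33, limma adjusted p = 0.0205), or 2.33-fold, and 5 of 5 rosiglitazone arrays lay above the obese mean. This call depended on single arrays: the adjusted p was 0.0664 without obese array 5 (difference 0.94), 0.0602 without obese array 3 (1.08) and 0.0578 without rosiglitazone array 1 (1.12).

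Dhcr7, the 7-dehydrocholesterol reductase, gave the cleanest separation of the groups. It stood at 6.23, 5.47, 5.79, 5.71 and 5.73 on rosiglitazone arrays 1 to 5 and at 5.11, 4.27, 4.73, 4.87 and 4.94 on obese arrays 1 to 5, so that the lowest rosiglitazone array was above the highest obese array. Of the 6 members it alone had groups that did not overlap; over all genes 6.14% did so on the higher side. The difference was 1.001 (SE 0.35, 95% interval 0.27 to 1.73, limma adjusted p = 0.0771) and did not pass. The shared SE includes the wide spread of Dhcr7 in lean control (SD 0.92) and resveratrol (SD 0.73) arrays, against 0.28 in rosiglitazone and 0.32 in obese arrays. With the compared groups fitted alone the adjusted p was 0.00563, with array weights it was 0.0376 (difference 0.98), and without lean control arrays 1 and 3 it was 0.0291.

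The other 3 members gave no call in rosiglitazone against obese arrays. Mvd, the mevalonate diphosphate decarboxylase, had a difference of 0.32 (95% interval 0.01 to 0.63, limma adjusted p = 0.201). Its mean over 20 arrays, 2.94, was under the median gene level, and no level was tested against background. Idi1, the isomerase that makes both isoprene units available, differed by 0.10 (95% interval -0.53 to 0.73, adjusted p = 0.898), and by 0.003 without obese array 2. Its values ran from 3.71 to 4.31 in rosiglitazone arrays and from 3.57 to 4.46 in obese arrays, so the rosiglitazone arrays lay inside the obese range. Squalene epoxidase, Sqle, differed in the opposite direction, by -0.40 (95% interval -0.90 to 0.10, adjusted p = 0.344). It stood at 3.76, 3.68, 4.11, 3.49 and 3.77 on rosiglitazone arrays 1 to 5 and at 4.76, 4.05, 3.87, 4.16 and 3.94 on obese arrays 1 to 5. All 5 rosiglitazone arrays were below the obese mean, but rosiglitazone array 3 lay above obese arrays 2, 3 and 5. The 95% intervals of Sqle (upper bound 0.10) and of Nsdhl (lower bound 0.62) and Fdps (lower bound 0.54) did not meet; the difference between genes was not tested.

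**Figure D2:**
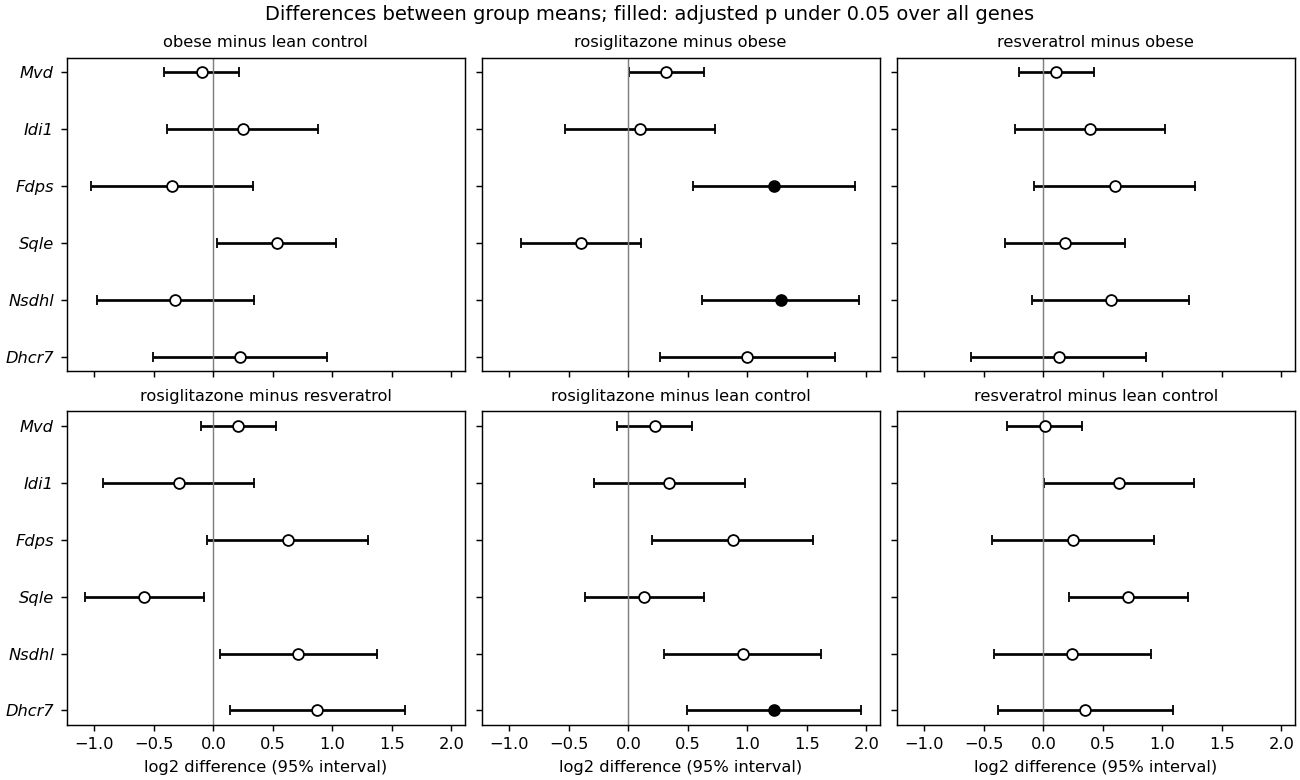
Each panel shows 1 comparison, with the log2 difference between group means on the horizontal axis and the 6 genes on the vertical axis; bars are 95% intervals from limma and filled points have an adjusted p under 0.05 over all genes. Fdps and Nsdhl are filled in rosiglitazone minus obese and Dhcr7 in rosiglitazone minus lean control; no other point is filled.

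The promoters of 7 of the 8 listed genes were matched by symbol in RefSeq (build GRCr8) and searched for motifs of the factors that control this pathway, over 250 bases before to 50 bases after each gene's start. Shown are the promoters of Fdps, Nsdhl and Dhcr7, the members with a call in any comparison, and of Idi1, which had none. Capitals mark CCAAT, the NF-Y box, or its reverse complement ATTGG, and CCCGCC, a GC box, or its reverse complement GGCGGG. Fdps lies on chr2:176804767-176805066, minus strand. Nsdhl lies on chrX:155817110-155817409, plus strand. Dhcr7 lies on chr1:208444184-208444483, plus strand. Idi1 lies on chr17:66547475-66547774, minus strand.
Fdps: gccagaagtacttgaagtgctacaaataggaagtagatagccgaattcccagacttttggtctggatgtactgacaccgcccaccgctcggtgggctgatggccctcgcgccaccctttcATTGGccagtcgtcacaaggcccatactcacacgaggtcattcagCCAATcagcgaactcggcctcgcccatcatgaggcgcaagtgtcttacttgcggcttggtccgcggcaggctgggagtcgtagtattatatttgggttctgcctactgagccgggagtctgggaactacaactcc
Nsdhl: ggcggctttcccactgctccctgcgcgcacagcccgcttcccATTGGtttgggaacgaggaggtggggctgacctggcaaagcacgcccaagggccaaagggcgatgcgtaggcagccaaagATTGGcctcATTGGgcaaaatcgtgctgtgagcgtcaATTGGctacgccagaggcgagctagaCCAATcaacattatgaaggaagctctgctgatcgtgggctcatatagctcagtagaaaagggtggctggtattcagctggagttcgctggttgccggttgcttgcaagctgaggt
Dhcr7: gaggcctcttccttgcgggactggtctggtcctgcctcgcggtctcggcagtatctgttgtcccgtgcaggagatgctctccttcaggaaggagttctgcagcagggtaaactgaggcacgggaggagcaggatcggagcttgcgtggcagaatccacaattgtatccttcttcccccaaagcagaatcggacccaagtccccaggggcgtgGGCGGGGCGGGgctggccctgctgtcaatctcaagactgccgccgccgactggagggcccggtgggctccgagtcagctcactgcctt
Idi1: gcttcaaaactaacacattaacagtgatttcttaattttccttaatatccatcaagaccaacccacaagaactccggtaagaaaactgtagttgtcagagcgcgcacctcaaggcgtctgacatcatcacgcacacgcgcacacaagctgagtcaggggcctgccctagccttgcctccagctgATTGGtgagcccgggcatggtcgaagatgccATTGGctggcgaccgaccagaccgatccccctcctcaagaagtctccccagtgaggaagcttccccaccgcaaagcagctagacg

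The CCAAT box was in the windows of Fdps (2 matches), Nsdhl (5), Idi1 (2), Mvd (2), Hmgcs1 (2) and Lss (1) on either strand, 6 of 7, and in 37.5% of all 33469 promoters. The Dhcr7 window had none, but had 2 overlapping matches of the GC box letters CCCGCC, which 4 of 7 members and 32.0% of all promoters held. The core of the sterol regulatory element, TCACCCCAC, was in 0 of 7 windows and 0.484% of all promoters; the looser form TCACNCCAC, which includes it, was in 0 of 7 and 1.12%. The motif AGGTCA, bound by nuclear receptors, was in the windows of Fdps and Nsdhl, once in each, and in 16.2% of all promoters. A missing match says only that these letters are not in the window.

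Rosiglitazone arrays were also set against lean control arrays. Dhcr7 rose by 1.23 (SE 0.35, limma adjusted p = 0.0443), or 2.34-fold, and the other 5 members did not pass; over all genes 5.19% passed, 2.63% on the higher side. At an unadjusted p under 0.05 stood 3 of 6 members and 18.2% of all genes. Lean control arrays 1 to 5 had Dhcr7 at 5.71, 4.26, 5.18, 3.31 and 4.33. Lean control array 1 lay within the rosiglitazone range, and arrays 2, 4 and 5 lay at least 1 log2 unit below the lowest rosiglitazone array. The call was kept in 10 of 21 alternatives and in 2 of 10 with an array left out, without lean control array 1 or 3. Without lean control array 4 the difference was 0.92 (adjusted p = 0.144), without lean control array 2 it was 1.15 (adjusted p = 0.105), without lean control array 5 it was 1.17 (adjusted p = 0.0918), and without any single rosiglitazone array the adjusted p lay between 0.0503 and 0.111. Nsdhl differed by 0.96 (SE 0.32, adjusted p = 0.0878) and Fdps by 0.87 (SE 0.33, adjusted p = 0.139), with 5 of 5 rosiglitazone arrays above the lean control mean for each. Without lean control array 1 both passed, Nsdhl at 1.15 (adjusted p = 0.0343) and Fdps at 1.10 (adjusted p = 0.0446). Mvd, Idi1 and Sqle differed by 0.22, 0.34 and 0.14 (adjusted p = 0.488, 0.620 and 0.843). The lean control and obese comparisons share the rosiglitazone arrays.

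Obese and lean control arrays were compared for differences that go with obesity. No member passed in limma, where 0.179% of all genes did, and 1 of 6, Sqle, had an unadjusted p under 0.05, against 13.5% of all genes. Sqle stood at 4.78, 3.32, 3.51, 3.09 and 3.42 on lean control arrays 1 to 5, and differed by 0.53 (95% interval 0.03 to 1.03, adjusted p = 0.341). All obese arrays were above lean control arrays 2, 3, 4 and 5, and lean control array 1 was above all obese arrays. Without lean control arrays 1 and 3, whose leptin levels (10.23 and 10.26) lay above those of all obese arrays (9.34 to 10.20), Sqle differed by 0.88 (adjusted p = 0.0396). The macrophage marker mean was highest of its group on lean control array 1, at 5.78 against 3.87 to 5.19 on the others. So were 5 of 6 members, Sqle among them. On obese arrays the macrophage mean was 4.41 to 5.79 and highest on array 1, as were 5 of 6 members, again with Sqle. Obese array 3, with the lowest obese Sqle (3.87), had a macrophage mean of 5.73. The part of macrophages in the result was not tested. Fdps differed by -0.35 (95% interval -1.03 to 0.33), Nsdhl by -0.32 (-0.98 to 0.34), Dhcr7 by 0.23 (-0.51 to 0.96), Idi1 by 0.24 (-0.39 to 0.88) and Mvd by -0.10 (-0.41 to 0.21). These values moved with single arrays. Without lean control array 1, Fdps differed by -0.12, Nsdhl by -0.13, Dhcr7 by 0.51 and Idi1 by 0.53, and the Sqle difference was 0.82 (adjusted p = 0.0577). Without obese array 2, Nsdhl differed by -0.13, Dhcr7 by 0.35 and Mvd by -0.03.

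Resveratrol and obese arrays were compared for differences that go with this compound. No member passed, no gene of the whole table did in limma (0% of 14557), and 0 of 6 members had an unadjusted p under 0.05, as against 8.83% of all genes. All 6 differences were positive, from 0.11 for Mvd to 0.60 for Fdps, with a median of 0.29; 52.8% of all genes had a positive difference. Fdps differed by 0.60 (95% interval -0.08 to 1.28, adjusted p = 0.597) and Nsdhl by 0.57 (-0.09 to 1.23, adjusted p = 0.608). Nsdhl stood at 3.6 on resveratrol array 1, the array with muscle and mammary transcripts, and at 4.94, 4.72, 4.79 and 4.82 on resveratrol arrays 2 to 5. Without that array and obese array 2 the Nsdhl difference was 0.62 (adjusted p = 0.869). Idi1 stood at 3.28 on resveratrol array 1 and at 4.33 to 5.11 on the other 4, against 3.57 to 4.46 in obese arrays. Without both arrays the Idi1 difference was 0.56 in place of 0.39 (adjusted p = 0.869), that of Dhcr7 0.30 in place of 0.13 and that of Mvd 0.06 in place of 0.11. Without resveratrol array 1 alone Sqle differed by 0.29 in place of 0.18 (adjusted p = 0.730), and without obese array 2 alone the Dhcr7 difference was -0.002 and that of Nsdhl 0.37.

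Resveratrol and lean control arrays gave no call among the members either, with 0.124% of all genes past the threshold in limma and 2 of 6 members, Sqle and Idi1, at an unadjusted p under 0.05, against 13.8% of all genes. Sqle was at 3.92, 4.63, 4.39, 4.39 and 4.37 on resveratrol arrays 1 to 5 and differed by 0.71 (SE 0.24, adjusted p = 0.185), and all 5 arrays exceeded the lean control mean. Lean control array 1 was above all of them, and without it the Sqle difference was 1.003 (adjusted p = 0.00995). Idi1 differed by 0.63 (SE 0.31, adjusted p = 0.362). Without resveratrol array 1, Dhcr7 differed by 0.66 in place of 0.35, Nsdhl by 0.49 in place of 0.24 and Mvd by 0.03 in place of 0.01 (adjusted p = 0.411, 0.537 and 0.968).

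The arrays of the 2 compounds were compared directly. No member passed in limma, where 6.9% of all genes did, and 3 of 6 had an unadjusted p under 0.05, against 19.3% of all genes. Dhcr7 was higher with rosiglitazone by 0.87 (95% interval 0.14 to 1.61, adjusted p = 0.159) and Nsdhl by 0.71 (0.06 to 1.38, adjusted p = 0.209). Sqle was lower with rosiglitazone by a log2 difference of -0.58 (-1.08 to -0.08, adjusted p = 0.175), with 5 of 5 rosiglitazone arrays below the resveratrol mean; it passed with these groups fitted alone (adjusted p = 0.0497) and without lean control arrays 1 and 3 (adjusted p = 0.0432). The macrophage marker mean, over 7 of 9 listed markers, was also lower in rosiglitazone arrays (3.97 to 5.19) than in resveratrol arrays (5.67 to 6.09). Its part was not tested. Fdps, Mvd and Idi1 differed by 0.62, 0.21 and -0.29 (adjusted p = 0.310, 0.499 and 0.680). Without resveratrol array 1 the Dhcr7 difference was 0.57, that of Nsdhl 0.47 and that of Idi1 -0.56 (adjusted p = 0.372, 0.446 and 0.296). The labels give no dose for either compound, so doses may differ.

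The order of the group means differed between members. Nsdhl and Fdps ran from obese (4.01 and 4.06) through lean control (4.33 and 4.41) and resveratrol (4.57 and 4.66) to rosiglitazone (5.29 and 5.28). Dhcr7 ran from lean control (4.56) through obese (4.78) and resveratrol (4.91) to rosiglitazone (5.79). Sqle ran from lean control (3.62) through rosiglitazone (3.76) and obese (4.16) to resveratrol (4.34), and Idi1 from lean control (3.71) through obese (3.95) and rosiglitazone (4.05) to resveratrol (4.34). Mvd ran from obese (2.81) through lean control (2.91) and resveratrol (2.92) to rosiglitazone (3.13). Neighbours in each order differed by less than the larger of their SDs, except the step to rosiglitazone for Nsdhl, Fdps and Dhcr7 and the step from rosiglitazone to obese for Sqle. None of these neighbouring steps passed the threshold.

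**Figure D3:**
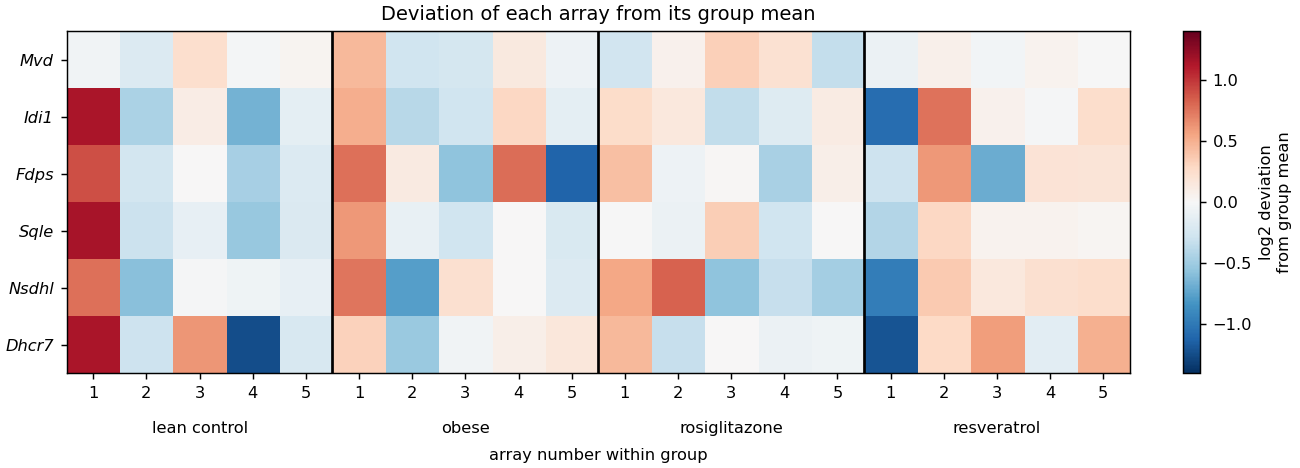
Columns are the 20 arrays by group, rows are the 6 genes, and the colour gives the log2 deviation of an array from the mean of its own group. Lean control array 1 and obese array 1 are high in most rows, and resveratrol array 1 is low in all of them.

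Within the groups, over all 20 arrays, the members other than Mvd moved together from array to array, and Mvd followed them weakly. Lean control array 1 was the highest of its group for 5 of 6 members, as was obese array 1, and resveratrol array 2 was the highest for 5 of 6. Resveratrol array 1 was the lowest of its group for 5 of 6 members and obese array 2 for 4 of 6. With group means taken away, all 15 pairs of members had a positive Pearson r over 20 arrays, with a median of 0.54. The highest was 0.84 (Idi1 and Dhcr7), followed by 0.81 (Idi1 and Sqle). The pairs with Mvd were the lowest, from 0.18 (Mvd and Dhcr7) to 0.31 (Mvd and Sqle). Without lean control array 1, obese array 2 and resveratrol array 1, the range over all 15 pairs was 0.15 to 0.70, with a median of 0.40. The lowest pair was still Mvd and Dhcr7. Mvd and Sqle then had 0.52, above Nsdhl and Dhcr7 (0.24) and Fdps and Dhcr7 (0.26), so the weaker following of Mvd was less clear. These values are a description, since the genes share the same arrays and the same mixture of cells. They were not set against pairs of other genes. Plin1, the adipocyte lipid droplet protein, stood at 8.39 on resveratrol array 1 and 9.46 on obese array 2, against 9.79 to 10.49 on the other 18 arrays.

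Of the genes ranked, those whose pattern was most like the mean deviation of the 6 members over 20 arrays were Cd164 (Pearson r 0.92), Cmpk1 (0.92), Rrm1 (0.90), Dcun1d2 (0.90), Lpcat3 (0.89), Itfg1 (0.88), Tmem106c (0.88) and Gna12 (0.88). With group means taken away they were Pemt (0.90), Uxt (0.89), Bola3 (0.89), Lpcat3 (0.88), Gsk3a (0.88), Cmpk1 (0.88), Bdh1 (0.88) and Trappc1 (0.88). Lpcat3, which remodels phospholipids with polyunsaturated fatty acids, and Cmpk1, a nucleotide kinase, were in both sets. The 6 members were left out of the ranking beforehand, so their absence from both sets is not a result. None of the genes in the sets is on the list of other synthesis enzymes described next.

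Other enzymes of the same route were taken from a list of 13, of which 7 were measured. In rosiglitazone against obese arrays 0 of 7 passed, against 9.86% of all genes, and their median log2 difference was 0.37. Squalene synthase Fdft1, which stands between Fdps and Sqle, differed by 0.70 (SE 0.28, limma adjusted p = 0.124). Its 5 rosiglitazone arrays, at 5.69 to 6.52, all lay above its 5 obese arrays, at 5.17 to 5.62, as for 6.14% of all genes. Msmo1, the methylsterol oxidase that acts before Nsdhl, differed by -0.35 (SE 0.19, adjusted p = 0.286). Sc5d, the desaturase just before Dhcr7, differed by 0.56 (adjusted p = 0.192), and against lean control arrays it rose by 1.08 (SE 0.26, adjusted p = 0.0146), or 2.11-fold, from 4.96 ± 0.44 to 6.04 ± 0.28 (SD, n = 5). That call was lost without lean control array 4 (difference 0.92, adjusted p = 0.0548). Pmvk, Tm7sf2, Ebp and Hsd17b7 had differences of 0.11, 0.40, 0.37 and 0.03 in rosiglitazone minus obese, none past the threshold.

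**Figure D4:**
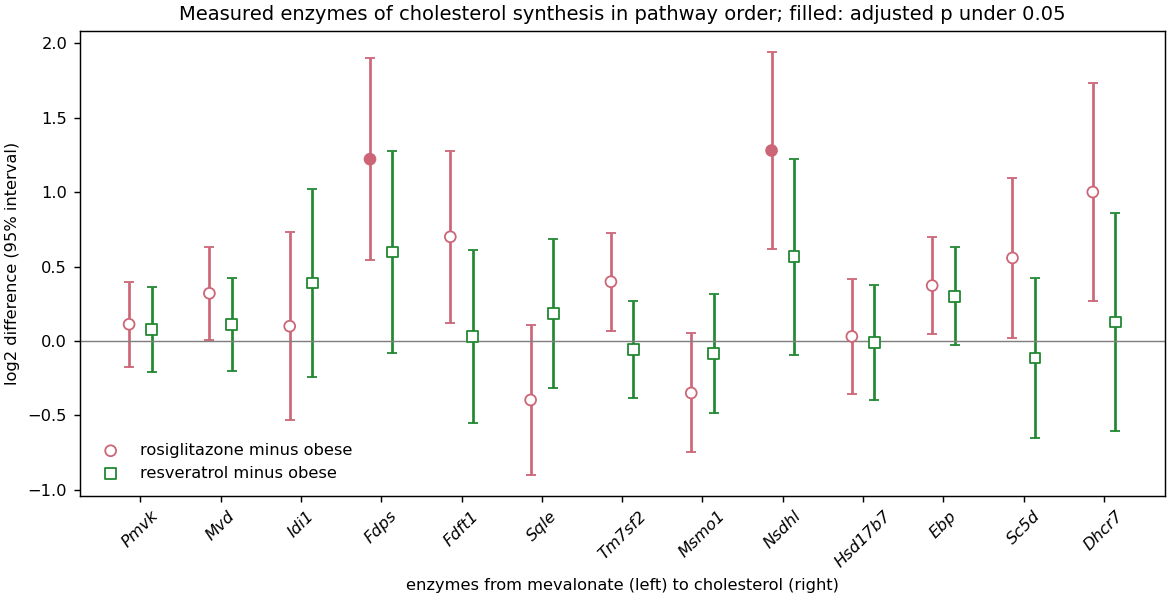
The 13 measured enzymes stand along the horizontal axis in the order in which they act after mevalonate, and the vertical axis gives the log2 difference from the obese group with its 95% interval, for rosiglitazone (circles) and resveratrol (squares); filled symbols have an adjusted p under 0.05. In rosiglitazone arrays Fdps and Nsdhl are filled, while Sqle and Msmo1 lie below 0.

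Of the regulators of the pathway, 6 of 7 were measured and 1 rose in rosiglitazone against obese arrays, where 7.19% of all genes rose. Scap, the sterol sensor that carries SREBP proteins, rose by 0.49 (SE 0.14, limma adjusted p = 0.0307). Its obese arrays lay between 5.52 and 5.60 and its rosiglitazone arrays between 5.72 and 6.42. The call was kept in 11 of 21 alternatives, and lost without rosiglitazone array 1, 3 or 4 or obese array 2, 3, 4 or 5, with adjusted p between 0.0505 and 0.0802. It was also lost with the compared groups fitted alone (adjusted p = 0.0564) and after renewed quantile normalisation (adjusted p = 0.0607). Srebf2, which encodes SREBP2, differed by -0.23 (SE 0.16, adjusted p = 0.412). Insig1, which holds SCAP in the endoplasmic reticulum, differed by 0.73 (SE 0.43, adjusted p = 0.331). Its groups did not overlap, as for 6.14% of all genes on the higher side. Against lean control arrays Insig1 differed by 1.31 (SE 0.43, adjusted p = 0.0872). On resveratrol array 1 Insig1 was at 5.72, against 8.38 to 9.02 on the other resveratrol arrays.

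Uptake and intracellular transport genes were measured for 7 of 13 entries, and 1 rose in rosiglitazone against obese arrays, where 7.19% of all genes rose. Vldlr, a receptor for triglyceride-rich lipoproteins, rose by 0.58 (SE 0.16, limma adjusted p = 0.0258), or 1.49-fold, with no overlap between its rosiglitazone arrays (5.83 to 6.43) and obese arrays (5.15 to 5.73), as for 6.14% of all genes. This call was lost without rosiglitazone array 1 or 5 or obese array 2 or 3, with adjusted p between 0.0592 and 0.0775. It was also lost with the compared groups fitted alone (adjusted p = 0.0522). In resveratrol against obese arrays Vldlr differed by 0.50 (SE 0.16, adjusted p = 0.390), also with no overlap. The lysosomal acid lipase Lipa, which frees cholesterol from its esters, differed by -1.31 (SE 0.46, adjusted p = 0.0741) in rosiglitazone minus obese. The list's median difference was 0.09.

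Of 11 efflux, esterification and oxysterol genes, all measured, 2 rose in rosiglitazone against obese arrays, where 7.19% of all genes rose. Ch25h, which makes 25-hydroxycholesterol, a signal that lowers SREBP cleavage, rose by 0.70 (SE 0.18, limma adjusted p = 0.0169), from 2.901 ± 0.234 to 3.604 ± 0.309 (SD, n = 5), with no overlap, as for 6.14% of all genes. Its obese, lean control and resveratrol means lay under the median gene level. It also rose by 1.02 (adjusted p = 0.00172) against resveratrol arrays and by 0.89 (adjusted p = 0.00517) against lean control arrays, comparisons that share the rosiglitazone arrays. Without rosiglitazone array 3 the difference from obese arrays was 0.60 (adjusted p = 0.0504). Abcg1, a cholesterol exporter, rose by 0.83 (SE 0.24, adjusted p = 0.0308). The adjusted p of Abcg1 lay between 0.0523 and 0.0886 without rosiglitazone array 2, 3 or 5 or obese array 2 or 5. Soat1, which esterifies cholesterol, was lower in rosiglitazone than in resveratrol arrays by a log2 difference of -0.91 (SE 0.26, adjusted p = 0.0347), a call lost without rosiglitazone array 2 or 4 or resveratrol array 1 or 5, with adjusted p between 0.0712 and 0.0905. The macrophage marker mean was also lower in rosiglitazone arrays, as given above.

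Genes of other isoprenoid branches (dolichol, ubiquinone and protein prenylation) were measured for 9 of 10 entries. Of these, 4 rose in rosiglitazone against obese arrays, with a median difference of 0.53. Dhdds, a subunit of the enzyme that builds the dolichol chain, rose by 0.84 (SE 0.14, limma adjusted p = 0.000464), or 1.78-fold. Its levels were 5.62, 5.64, 5.67, 5.35 and 5.18 on rosiglitazone arrays 1 to 5 and 4.47 to 4.82 in obese arrays. Dhdds passed under all 21 alternatives, and also rose against resveratrol (0.56, adjusted p = 0.0137) and lean control arrays (0.80, adjusted p = 0.00115). Coq2, which attaches the side chain of ubiquinone, rose by 0.55 (adjusted p = 0.0276), and the farnesyltransferase subunits Fnta and Fntb rose by 0.58 (adjusted p = 0.0216) and 0.68 (adjusted p = 0.0321). These 3 calls were each lost without some single arrays, Coq2 without rosiglitazone array 1, 2 or 3 or obese array 2 or 3, Fnta without rosiglitazone array 1 or 2 or obese array 3 or 5, and Fntb without rosiglitazone array 1, 2 or 3 or obese array 3, 4 or 5, with adjusted p of at most 0.0999. The Fnta call was also lost with the compared groups fitted alone (adjusted p = 0.0669). Against resveratrol arrays Coq2 and Fnta rose by 0.67 and 0.71 (adjusted p = 0.0101 and 0.00737) under all 21 alternatives. The related lists were read beside the 7.19% of all genes that rose in rosiglitazone against obese arrays.

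Markers of other cell types moved with the rosiglitazone group. The mean over 5 brown adipocyte markers was 5.17 to 8.07 in rosiglitazone arrays, highest on array 2, and 3.51 to 4.07 in obese arrays. Nsdhl was also highest on rosiglitazone array 2, and without that array its difference from obese arrays was 1.07 (adjusted p = 0.038). No other member was highest of its group on that array, and Dhcr7 was lowest there, at 5.47. The mean over 4 endothelial markers was 5.06 to 5.47 in rosiglitazone and 5.55 to 6.38 in obese arrays. Among them Cldn5 and Cdh5, of endothelial junctions, fell by 2.06 and 0.96 (adjusted p = 4.49e-05 and 0.00950), Vwf, a clotting protein of endothelium, rose by 0.79 (adjusted p = 0.00900), and Tek did not pass. The mean over 7 macrophage markers was 3.97 to 5.19 in rosiglitazone against 4.41 to 5.79 in obese arrays. The part of these cells in the member differences was not tested.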

How the data were processed

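RNA from 20 rat samples (5 per group) was hybridised to Affymetrix Rat Gene 2.1 ST arrays, 1 array per sample. The deposited values are log2 signals made by the authors with RMA (background correction, quantile normalisation and probe summary), per the submitters' processing notes. No version is given there, and the log2 scale was read from the values. Array medians lay between 2.46 and 2.63 and arrays correlated at 0.895 to 0.987. The number of arrays limits the precision.

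Of 36685 features, 14824 had 1 gene symbol in the platform annotation, 829 had several and 21032 were not listed there. The brightest feature stood for a gene where there were several (234 genes), which left 14557 genes. Group means were fitted to all 20 arrays by lmFit and eBayes of limma (version 3.58.1, under R 4.3.3; 16 residual degrees of freedom), without a filter on dim genes, and two-sided p-values were adjusted by Benjamini-Hochberg over all genes in each of 6 comparisons. The fit was tested on simulated data. Named genes were, by rule, the measured members, at most 4 genes per related list past the threshold in rosiglitazone against obese arrays, Srebf2 and Insig1, and the 8 ranked genes most like the members by each of 2 measures. The other synthesis enzymes, Lipa and Soat1 were chosen after their values were seen. The members and lists were chosen with earlier results of these data known. Alternatives covered normalisation, centring, dim genes, features per gene, the variance model, array weights, the groups fitted, the replicate number as a block and each array left out. 2 added after seeing the data left out resveratrol array 1 with obese array 2, and lean control arrays 1 and 3. RefSeq promoters (GRCr8) were searched on both strands.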

Additional observations from a re-analysis of the deposited data

Results flagged for a closer look

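Each of the 6 members was examined in each of the 4 groups for a single array far from the other 4, by Dixon's ratio of gap to range with a critical value of 0.71. 2 of 24 sets stood out, where chance gives about 1 in 20. Sqle was at 4.778 on lean control array 1, against 3.51 on the nearest lean control array, a gap of 0.752 of the range. The same array had the highest macrophage marker mean of its group and was the highest for 5 of 6 members. The part of macrophages in the Sqle value was not tested. Nsdhl was at 3.6 on resveratrol array 1, against 4.716 on the nearest resveratrol array, a gap of 0.832 of the range. This is the array with skeletal muscle and mammary transcripts, whose part in the Nsdhl value was not tested.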

How the results depend on the processing

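Of 750 member differences under an alternative, 723 kept their side of the threshold, 13 passed anew and 14 no longer passed. Among the 723, 0 called values changed sign, while 7 values past the threshold in neither fit did. Nsdhl in rosiglitazone against obese arrays passed under all 21 alternatives. The count of members past the threshold in rosiglitazone against lean control arrays, 1, was 0 with trend and robust eBayes, 0 with the compared groups alone, 0 with the replicate block, 2 with array weights, 2 without resveratrol array 1 and obese array 2, and 0 to 3 with 1 array left out. In resveratrol against lean control arrays, 0 became 1 with array weights and 1 without lean control arrays 1 and 3, with a range of 0 to 1 with 1 array left out. In rosiglitazone against resveratrol arrays, 0 became 1 with the compared groups alone and 1 without lean control arrays 1 and 3. In obese against lean control arrays, 0 became 1 without lean control arrays 1 and 3. In rosiglitazone against obese arrays the count, 2, was 1 to 2 with 1 array left out, and 3 (with Dhcr7) with array weights, with the compared groups alone and without lean control arrays 1 and 3. The causes were not tested.

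Over all genes, the 26 calls in obese against lean control arrays became 8 after renewed quantile normalisation, 2 after centring, 44 without dim genes, 13 with the mean of features, 0 with these groups alone and 3 with the replicate block, and 2 to 65 with 1 array left out. The 18 calls in resveratrol against lean control arrays became 398 with array weights, 0 with these groups alone, 71 with the replicate block and 0 to 206 with 1 array left out. Without lean control arrays 1 and 3 these counts were 110 and 333. In resveratrol against obese arrays, 0 became 3 with array weights.

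The deviations of same-numbered arrays of different groups had a median correlation of 0.03 over 30 pairs (range -0.21 to 0.36). Over 120 pairs with different numbers the median was -0.008. Among the 30, 5 were over 0.1, and 6 of 20 arrays correlated best with an array of their own number. Whether some same-numbered arrays share more than a number was not tested. With the replicate block the Dhcr7 difference in rosiglitazone against lean control arrays, 1.23, had an adjusted p of 0.0550 and the Abcg1 difference from obese arrays 0.0562; no other call described changed. Leaving out dim genes removes Mvd and Ch25h, which then have no value.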
